A study of Homo sapiens with 6 samples.

Results

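The insulin and insulin-like growth factor (IGF) receptor signalling genes INSR, IGF1R, IGF2R, IRS1, IRS2, GRB10, IGFBP4 and IGFBP6 were followed in cells treated with TIC10. They were taken by symbol from the array annotation, which gave 11 probes for the 8 genes, of 47319 probes and 20046 named genes in all. GRB10 is read by 4 probes and each other member by 1. The cells were HCT116, an established human colorectal carcinoma line, in a derivative that the design describes as p53-null. They were harvested 48 h after addition of fresh complete medium that held either 10 µM of the small molecule TIC10 (ONC201) or 0.05% of the solvent DMSO. There were 3 arrays per treatment, 6 in all, and both groups shared the p53-null background and the medium. The labels call the arrays replicates and do not say whether these were separate cultures, so the error terms may hold technical spread alone. Where the values of 3 arrays are listed, they stand in the order of replicates 1, 2 and 3.

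Insulin and the IGFs act through the receptor tyrosine kinases INSR and IGF1R. The activated receptors phosphorylate the docking proteins IRS1 and IRS2, which recruit phosphoinositide 3-kinase and so switch on AKT, a kinase that keeps FOXO transcription factors out of the nucleus. GRB10 is an adaptor that binds the activated receptors and dampens their signal, IGF2R carries IGF2 to the lysosome, and the IGFBP proteins bind IGFs outside the cell. INSR and IRS2 are known targets of FOXO factors in other cells, and the title of the series concerns AKT, ERK and Foxo3a.

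The promoters of IRS2 and IGFBP6 are shown because they were the only member promoters that held one of 3 searched motifs. Promoters, meaning 250 bases before to 50 bases after a gene start, were taken from RefSeq (GRCh38.p14), where all 8 genes had at least 1 and GRB10 had 5, 12 in all. The motifs, each searched on both strands, were GTAAACA, a core bound by FOXO factors, CAAAACA, the core of insulin response elements, and TGATGCA, a core of the element bound by ATF4 with C/EBP partners. Capitals mark the match, and no matches overlapped. The IRS2 promoter lies at chr13:109786534-109786833 on the minus strand, and the IGFBP6 promoter at chr12:53097417-53097716 on the plus strand.
IRS2: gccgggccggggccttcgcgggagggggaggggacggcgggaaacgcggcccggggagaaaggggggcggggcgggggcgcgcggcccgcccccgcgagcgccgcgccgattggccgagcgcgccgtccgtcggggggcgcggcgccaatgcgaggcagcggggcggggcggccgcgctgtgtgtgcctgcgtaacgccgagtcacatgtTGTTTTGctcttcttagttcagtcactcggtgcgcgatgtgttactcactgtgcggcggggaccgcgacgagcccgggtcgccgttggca
IGFBP6: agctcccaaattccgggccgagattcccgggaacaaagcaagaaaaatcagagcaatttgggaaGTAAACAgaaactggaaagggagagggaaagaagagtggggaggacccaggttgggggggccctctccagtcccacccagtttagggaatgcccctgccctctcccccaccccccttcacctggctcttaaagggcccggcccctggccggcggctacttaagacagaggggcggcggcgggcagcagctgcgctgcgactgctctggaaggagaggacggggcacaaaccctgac

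In IRS2 the insulin response core lay 34 to 40 bases before the gene start, on the opposite strand, where it reads TGTTTTG. In IGFBP6 the FOXO core lay 180 to 186 bases before the start. Of 35116 promoters in the table, 4.92% held CAAAACA, 3.42% held GTAAACA and 2.63% held TGATGCA. None of the 12 member promoters held the last of these, and none of the 5 GRB10 promoters held any of the 3 motifs. A match describes these letters in this window only.

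The summed bead intensity ran from 1.16e+07 to 1.91e+07 per array, with DMSO replicate 3 the brightest. After normalization DMSO replicate 3 differed from the mean of the other DMSO arrays by a root mean square of 0.39 on the log2 scale, against 0.14 to 0.25 for each of the other arrays. Differences without it were taken for the kept member probes and the genes named by rule. They are given below where it changed the call or moved the difference by over 1.5 times, and for a few others. For IGF1R, IGFBP4, IGFBP2, PAPPA and EIF4EBP1 no difference without it was taken. The highest normalized values of IGF1R and IGFBP2 were on this array. Of 8 colorectal epithelial markers 6 passed the brightness filter, with a summed intensity of all 8 from 14805 to 22268 with DMSO and 13237 to 16699 with TIC10, while CDX1 and VIL1 stayed below it. The marker of this list that was called, KRT19, was higher with TIC10 (0.40, adjusted p = 0.0292). Keratin 18 (KRT18) was dim on DMSO replicate 3 alone, at 46.6 against 142.9 to 164.9 on the other arrays. The leukocyte markers PTPRC and CD3E read 32.9 to 47.8 and the endothelial markers PECAM1, VWF and CDH5 30.2 to 52.3. The leukocyte marker LYZ read 44.3 to 92.9. The brightest fibroblast marker, COL1A1, read 60.3 to 92.6, and the brightest liver or adipose marker, ALB, 53.0 to 85.6. The fibroblast markers COL1A1, COL1A2 and DCN passed the filter, as did ALB, and no fibroblast, liver or adipose marker was called. The summed intensity of the 4 leukocyte markers was 421 to 491 on DMSO arrays and 841 to 1013 on TIC10 arrays. This came through CD68, a lysosomal gene that is not restricted to leukocytes. CD68 read 242 to 353 with DMSO and 699 to 889 with TIC10, and was called higher (1.78, adjusted p = 0.00515). PTPRC and LYZ of that list were not called, CD3E failed the filter, and the part of CD68 in the results was not tested.

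TIC10 was compared with DMSO to ask whether transcripts of receptor-near insulin and IGF signalling changed. IRS2 rose 2.33-fold and GRB10 by 1.43-fold to 1.51-fold on 3 of its 4 probes. In RNA pooled from a whole culture, a change in every cell and a change in the share of cells with the transcript cannot be told apart. No change was called for INSR, IGF2R, IRS1 or IGFBP6, and the probes of IGF1R and IGFBP4 were too dim to be tested. Of the 9 member probes tested, 4 were called higher and 0 lower in limma's moderated test (Benjamini-Hochberg adjusted p under 0.05 over 29440 probes), and the GRB10 probes among them share a target. At an unadjusted p under 0.05 there were 5 higher and 0 lower, where 14.6% of all probes tested were higher and 15.2% lower at that threshold. Of all probes tested, 18.0% were called, 8.67% higher and 9.32% lower. With arrays scaled to one median in place of quantile normalization, 513 probes were higher and 2445 lower, against 2552 and 2745, and 1 member probe was called.

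**Figure D1:**
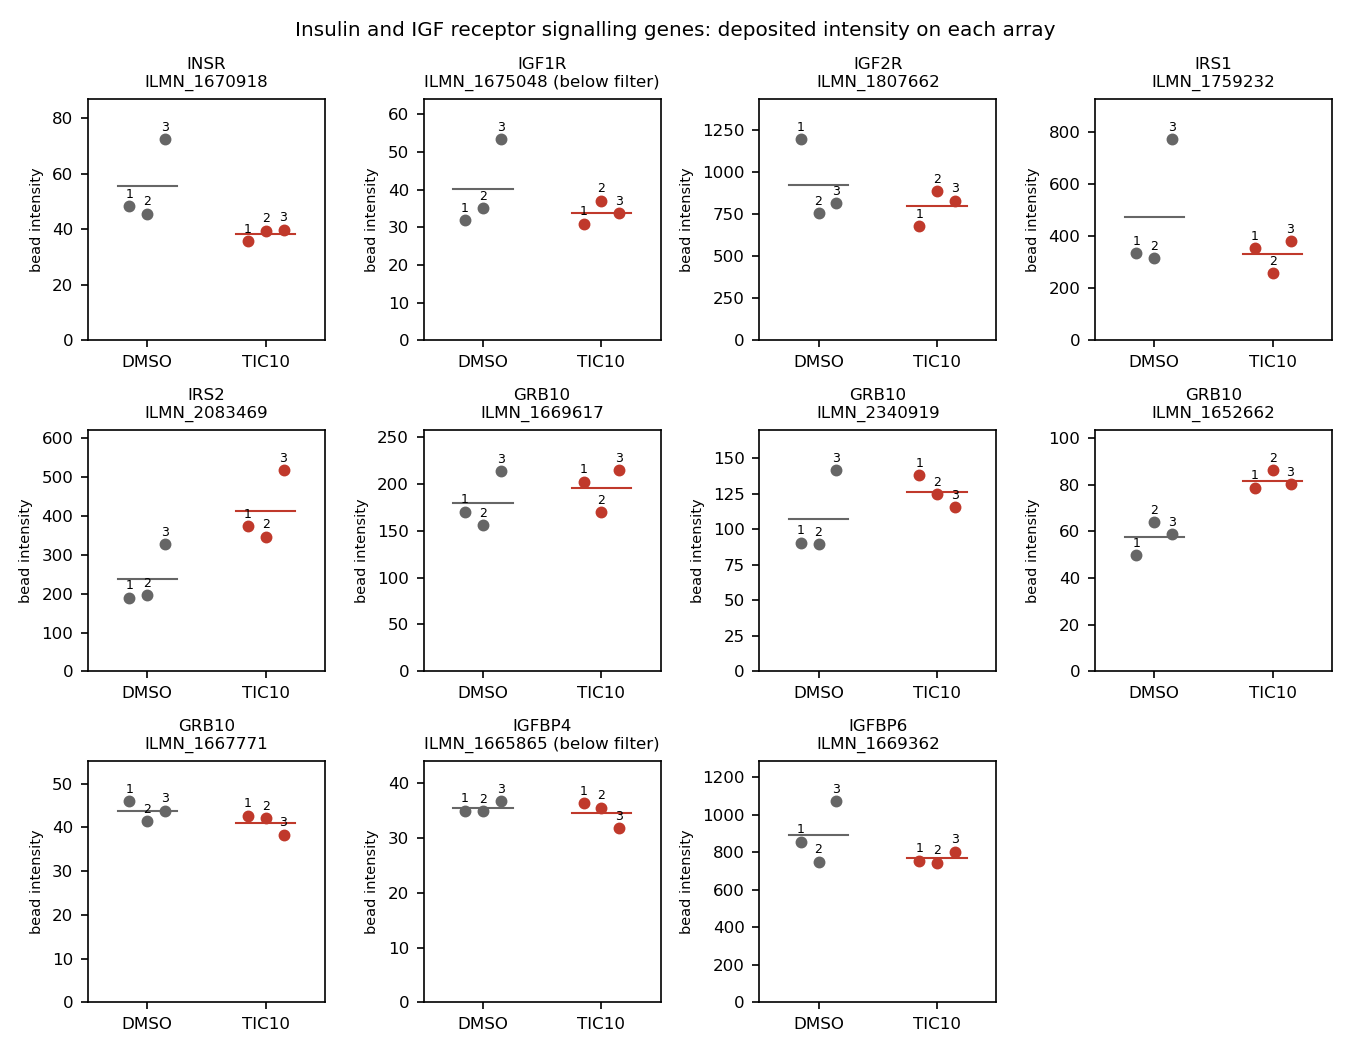
Deposited bead intensity (linear axis from 0, not normalized) of each of the 11 member probes on the 3 DMSO arrays (grey) and the 3 TIC10 arrays (red), with the replicate number above each point and the group mean as a line. The IRS2 values and those of the GRB10 probe ILMN_1652662 do not overlap between groups, with TIC10 above, and those of INSR do not overlap with TIC10 below. The median intensity over all probes is also lower on every TIC10 array than on every DMSO array.

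IRS2, one of the docking proteins that couple the receptors to phosphoinositide 3-kinase, had the largest difference among the members tested. Its intensity as deposited was 189.5, 196.8 and 326.5 with DMSO and 373.2, 346.5 and 517.6 with TIC10. All TIC10 arrays lay above all DMSO arrays even without normalization, although DMSO replicate 3 came close to TIC10 replicate 2. After normalization the log2 level was 7.77 ± 0.12 in DMSO and 8.99 ± 0.17 in TIC10 (SD, n = 3 each), and the values did not overlap. The difference was 1.22 ± 0.11 on the log2 scale (SE, adjusted p = 0.00107; 95% interval 0.96 to 1.49). Leaving out each array in turn gave 1.13 to 1.31, and 1.24 without DMSO replicate 3. The call was lost with arrays scaled to one median (0.83, adjusted p = 0.0867) and in the series matrix, the authors' processed values (0.34, adjusted p = 0.129; 0.000137 to 0.129 over 17 alternatives). In the matrix the IRS2 values were -0.21, -0.16 and -0.34 with DMSO and 0.04, 0.27 and 0.01 with TIC10, so that the groups did not overlap there either.

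IRS1, the other docking protein, did not follow IRS2 past the threshold. It read 335.2, 315.1 and 773.1 with DMSO and 353.8, 258.3 and 381.3 with TIC10. DMSO replicate 3 was more than any other array, and the remaining arrays of both groups overlapped. The normalized log2 level was 8.59 ± 0.30 in DMSO and 8.69 ± 0.23 in TIC10 (SD, n = 3 each). The difference was 0.10 ± 0.18 (SE, adjusted p = 0.787), with a 95% interval from -0.33 to 0.53. That interval lies below the one for IRS2, but the difference between the genes was not tested. Without DMSO replicate 3 IRS1 differed by 0.27 (adjusted p = 0.173; 0.173 to 0.994 over 17 alternatives), and scaling the arrays to one median gave the opposite sign, -0.32.

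GRB10, the receptor-binding adaptor that dampens insulin and IGF signals, was higher on 3 probes and flat on the dimmest. Probe ILMN_1669617, the brightest of them, read 170.3, 156.1 and 213.1 with DMSO and 202.0, 169.6 and 214.5 with TIC10. These intensities overlapped between the groups, and they separated only once the arrays were normalized, at log2 levels of 7.46 ± 0.08 in DMSO and 7.98 ± 0.11 in TIC10 (SD, n = 3 each). The difference was 0.52 ± 0.08 (SE, adjusted p = 0.00759).

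Probe ILMN_1652662, annotated to the same transcript, read 49.8, 63.9 and 58.8 with DMSO and 78.7, 86.2 and 80.2 with TIC10. Here the groups did not overlap before or after normalization. The log2 level went from 6.26 ± 0.15 to 6.85 ± 0.09 (SD, n = 3 each), a difference of 0.59 ± 0.10 (SE, adjusted p = 0.00864). It was the one member probe still called with arrays scaled to one median (0.47, adjusted p = 0.0315; 0.00443 to 0.703 over 14 alternatives).

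Probe ILMN_2340919, annotated to a different transcript, read 90.5, 89.6 and 141.6 with DMSO and 138.1, 124.9 and 115.8 with TIC10. DMSO replicate 3 lay above all TIC10 arrays before normalization and below them after it. The difference was 0.57 ± 0.12 (SE, adjusted p = 0.0177), and it lost its call when replicate 1 or 2 of either group was left out, with adjusted p from 0.0578 to 0.0665 (0.00347 to 0.314 over 15 alternatives). With arrays scaled to one median, ILMN_1669617 came to 0.18 (adjusted p = 0.457; 0.00203 to 0.457 over 17 alternatives) and ILMN_2340919 to 0.30 (adjusted p = 0.314).

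Probe ILMN_1667771 of GRB10, annotated to another transcript again, read 38.4 to 46.0 over all 6 arrays. It passed the brightness filter on 1 DMSO and 2 TIC10 arrays only, and differed by 0.02 ± 0.06 (SE, adjusted p = 0.884; 95% interval -0.13 to 0.17), and by 0.0075 without DMSO replicate 3. At this intensity a change of that transcript could go undetected.

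GRB10 was the only member called in both deposited tables. In the series matrix ILMN_1669617 differed by 0.61 (adjusted p = 0.00602) and ILMN_2340919 by 0.53 (adjusted p = 0.0148), while ILMN_1652662 came to 0.15 (adjusted p = 0.703) and ILMN_1667771 to -0.06 (adjusted p = 0.922). The matrix values of ILMN_1669617 were -0.44, -0.25 and -0.14 with DMSO and 0.33, 0.30 and 0.38 with TIC10, well apart. In the matrix 2 of 9 member probes were called, both higher, where 4.53% of all probes tested were called and 2.39% were higher. The tables do not simply repeat each other: across the 29440 probes their TIC10 minus DMSO differences correlated at 0.57, and probes are not independent replicates. None of the 6 bead arrays correlated best with the matrix column of its own replicate number, so only group comparisons were read from both.

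**Figure D2:**
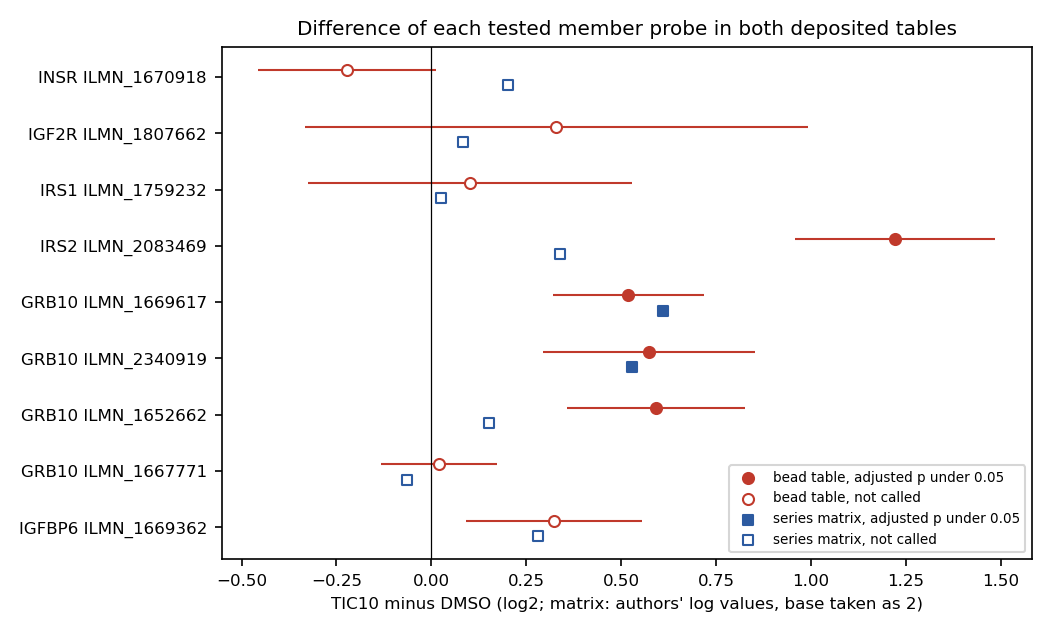
TIC10 minus DMSO for the 9 tested member probes. Red circles are log2 differences of the bead table with their 95% intervals from limma, blue squares those of the authors' series matrix (log values, base taken as 2), filled where the adjusted p was under 0.05. The 2 filled squares are GRB10 probes, and IRS2 stands at 1.22 in the bead table against 0.34 in the matrix.

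Among the receptors, INSR, the insulin receptor itself, was dim. It read 48.3, 45.6 and 72.4 with DMSO and 35.7, 39.5 and 39.9 with TIC10. All TIC10 values lay below all DMSO values, but the probe passed the brightness filter through the 3 DMSO arrays alone. The median intensity over all probes was also lower on every TIC10 array than on every DMSO array. The order of the INSR values was kept after normalization. The normalized difference was -0.22 ± 0.10 (SE, adjusted p = 0.191; 95% interval -0.46 to 0.01), and leaving out DMSO replicate 3 gave -0.12 (adjusted p = 0.313; 0.0911 to 0.436 over 16 alternatives). In the series matrix the sign was the opposite, with a difference of 0.20 and all TIC10 values above all DMSO values (-0.25, -0.16 and -0.13 in DMSO, 0.00, -0.05 and 0.11 in TIC10).

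IGF1R, the receptor for IGF1 and IGF2, failed the filter. Its probe read 31.9, 35.1 and 53.4 with DMSO and 31.0, 37.1 and 33.8 with TIC10. Only DMSO replicate 3 exceeded the 40th percentile of its array, and the groups overlapped. Without the filter the difference was -0.06 ± 0.11 (SE, adjusted p = 0.873), so no difference was detectable at this intensity.

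IGF2R, the mannose 6-phosphate receptor that removes IGF2, was bright on every array. It read 1193.7, 754.8 and 813.4 with DMSO and 676.6, 885.4 and 828.3 with TIC10, with overlap between the groups. The normalized levels were 9.60 ± 0.56 in DMSO and 9.93 ± 0.20 in TIC10 (SD, n = 3 each), and the spread of its DMSO arrays was wider than that of 96.6% of the probes tested. Its difference of 0.33 ± 0.28 (SE, adjusted p = 0.522; 95% interval -0.33 to 0.99) came to 0.03 without DMSO replicate 3 and to 0.59 without DMSO replicate 1.

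Of the binding proteins, IGFBP6, which prefers IGF2 over IGF1, was bright and close to the threshold. It read 858.2, 750.9 and 1073.6 with DMSO and 755.3, 744.6 and 804.4 with TIC10. These intensities overlapped, and after normalization all TIC10 values were above all DMSO values, at 9.89 ± 0.08 against 9.57 ± 0.15 (SD, n = 3 each). The difference of 0.32 ± 0.10 (SE, 95% interval 0.09 to 0.56) did not pass after adjustment (adjusted p = 0.0681), passed with array weights (0.26, adjusted p = 0.0359; 0.0359 to 0.587 over 17 alternatives) and turned to -0.13 with arrays scaled to one median. In the series matrix it was 0.28 (adjusted p = 0.203), again without overlap of the groups. IGFBP4, a binding protein that restrains IGF action until it is cleaved, read 31.8 to 36.7 over all arrays, never above percentile 19.8 of its array. Without the filter it differed by 0.04 ± 0.05 (SE, adjusted p = 0.795).

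Over the 9 tested probes, the 3 TIC10 values lay all above the 3 DMSO values in 5 and all below in 1, where 35.2% of all probes tested had groups that did not overlap. Of the 5 above, 3 were GRB10 probes, which share a target. The 1 below was INSR, which passed the filter through its DMSO arrays alone. The 9 probes are thus not 9 independent members, and the tally was not tested against that share. In the series matrix 5 of the 9 did not overlap, all with TIC10 above, against 19.6% of all probes. With 3 arrays per group, 0.1 is the smallest two-sided p that an exact permutation test of a single probe allows.

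**Figure D3:**
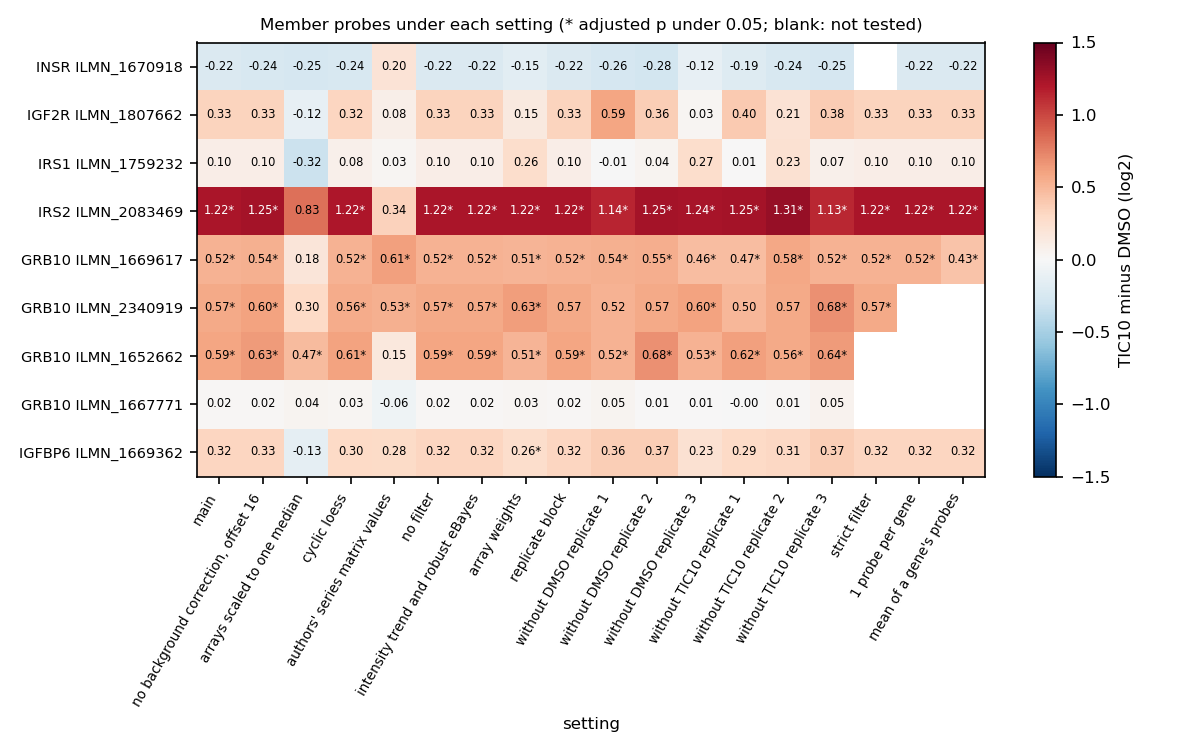
TIC10 minus DMSO (log2) of the 9 tested member probes (rows) under the reported setting and each alternative (columns). Stars mark an adjusted p under 0.05 and blank cells were not tested. IRS2 keeps its star in all columns but 2, the scaling to one median (0.83) and the series matrix (0.34), and ILMN_1669617 of GRB10 in all but the scaling to one median (0.18).

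The probes most like the 2 called members with the largest differences were found over the 6 arrays, as the lowest root mean square difference of log2 values after centring each probe. For IRS2 these were probes of PCNX2 (0.08), OR2A1 (0.09) and RILPL1 (0.09), where the median over all named probes was 0.64. For GRB10, by probe ILMN_1652662, they were MEX3A (0.03), MGST1 (0.04) and BSPRY (0.04), with a median of 0.34. In the bead table the 3 IRS2-like probes differed by 1.26, 1.19 and 1.24, and the 3 GRB10-like probes by 0.54, 0.54 and 0.63. The probes were picked by these same bead values, so the small distances and like differences follow from the choice. In the series matrix PCNX2 (0.68, adjusted p = 0.00211) and OR2A1 (0.89, adjusted p = 0.00016) were called, while RILPL1 (-0.03), MEX3A (0.05), MGST1 (-0.01) and BSPRY (0.32) were not.

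The wider pathway was read from 102 other genes in 4 groups, of which 12 had no probe named here and 7 failed the filter. Each gene was represented by its brightest probe. Of the 83 tested, 11 were higher and 6 lower, which is 20.5% called, and the median log2 difference was 0.01. By the same measure 23.0% of all 14534 genes were called, 10.0% higher and 13.0% lower, and their median was -0.01. Of the 6 members so represented, 2 were higher and 0 were lower, and their median was 0.33. The calls of the wider pathway depended on scaling and on single arrays: 2 were higher and 9 lower with arrays scaled to one median, and 16 and 12 without DMSO replicate 3.

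Among ligands and extracellular regulators 1 of 11 tested genes was called, higher. This was STC2, which encodes stanniocalcin-2, a secreted inhibitor of the protease pappalysin-1 that cleaves IGFBP4. It read 393, 333 and 569 with DMSO and 1173, 1092 and 1384 with TIC10, with no overlap. STC2 rose 3.91-fold (1.97 ± 0.06 on the log2 scale, SE, adjusted p = 0.000118), and by 1.33 in the series matrix (adjusted p = 2.53e-06). The protease gene itself, PAPPA, differed by 0.01 ± 0.06 (adjusted p = 0.929) and read near the filter. Apart from STC2 and IGFBP2, the tested genes of this group read only 36.5 to 65.0, where a change could go undetected. IGFBP2 read 367, 399 and 1316 with DMSO and 236, 194 and 220 with TIC10, without overlap. It was not called (-0.86 ± 0.29, adjusted p = 0.093), and it came to 0.02 in the series matrix. PAPPA and IGFBP2 were named here after their values were seen.

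Among adaptors and receptor-near regulators, 6 of 30 tested genes were higher and 1 was lower, and the median over the 30 was 0.10. PTPN2, a tyrosine phosphatase that acts on the insulin receptor, rose by 0.73 ± 0.09 (adjusted p = 0.00332). FBXW8, the substrate subunit of a ubiquitin ligase that targets IRS1, rose by 0.61 ± 0.08, the docking protein GAB2 by 0.58 ± 0.10 and the ubiquitin ligase CBL by 0.59 ± 0.15 (adjusted p = 0.0389). ENPP1, a membrane pyrophosphatase reported to bind and inhibit the insulin receptor, changed by -0.93 ± 0.18 (adjusted p = 0.0137). It read 180.3, 169.5 and 146.0 with DMSO against 59.8, 54.3 and 67.4 with TIC10, well apart. None of these 5 passed in the series matrix, where ENPP1 stood at -0.13 and GAB2 at 0.42. ENPP1 alone of the 5 passed when the arrays were scaled to one median. Further probes gave 0.06 and 0.12 for PTPN2, 0.03 and -0.0023 for FBXW8, 0.35 for CBL and -0.09 for ENPP1, none of them called. CBL lost its call when DMSO replicate 1 or 2, or TIC10 replicate 1 or 3, was left out, with adjusted p up to 0.135 (0.00295 to 0.825 over 17 alternatives), and ENPP1 without TIC10 replicate 1 or 2, with adjusted p up to 0.0573 (8.63e-05 to 0.747 over 17 alternatives).

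In the group of phosphoinositide 3-kinase, AKT and mTOR genes, 4 of 35 tested were higher and 5 were lower, and the median over the 35 was -0.00094. TRIB3, a pseudokinase that binds AKT, rose by 2.37 ± 0.15 in the bead table and by 2.38 in the series matrix. INPP4B, a phosphoinositide phosphatase, rose by 0.77 ± 0.07. EIF4EBP2, a translation repressor controlled by mTORC1, changed by -0.94 ± 0.11, and the AKT-related kinases SGK1 and SGK3 by -0.66 ± 0.08 and -0.63 ± 0.10. The adjusted p of these 5 genes ran from 0.000369 to 0.00887. Further probes gave -0.58 and -0.56 for SGK1 and -0.50 for SGK3, all called. Of the 5, TRIB3 alone passed in the series matrix, where INPP4B came to 0.06 and EIF4EBP2 to -0.04, and INPP4B also lost its call with arrays scaled to one median (0.44, adjusted p = 0.102; 0.000234 to 0.922 over 17 alternatives). EIF4EBP1, a relative of EIF4EBP2, went the other way and was called in both tables. It rose by 0.60 ± 0.10 (adjusted p = 0.00925), and by 0.49 in the series matrix (adjusted p = 0.0231). Its deposited intensities overlapped between the groups, and it was named here after its value was seen.

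In the RAS and ERK group 0 of 7 tested genes were called at the adjusted threshold in limma, and 2 had an unadjusted p under 0.05, as did 37.2% of all genes. The smallest p-values belonged to MAP2K2, which encodes the ERK kinase MEK2, at 0.44 ± 0.13 (adjusted p = 0.0636), and to RPS6KA3, which encodes the ERK-activated kinase RSK2, at 0.38 ± 0.11 (adjusted p = 0.0641). Without DMSO replicate 3 MAP2K2 came to 0.56 and was called (adjusted p = 0.00271; 0.00271 to 0.967 over 17 alternatives). Further probes of RPS6KA3 gave -0.27 and 0.15, neither called, so its probes disagreed in sign.

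**Figure D4:**
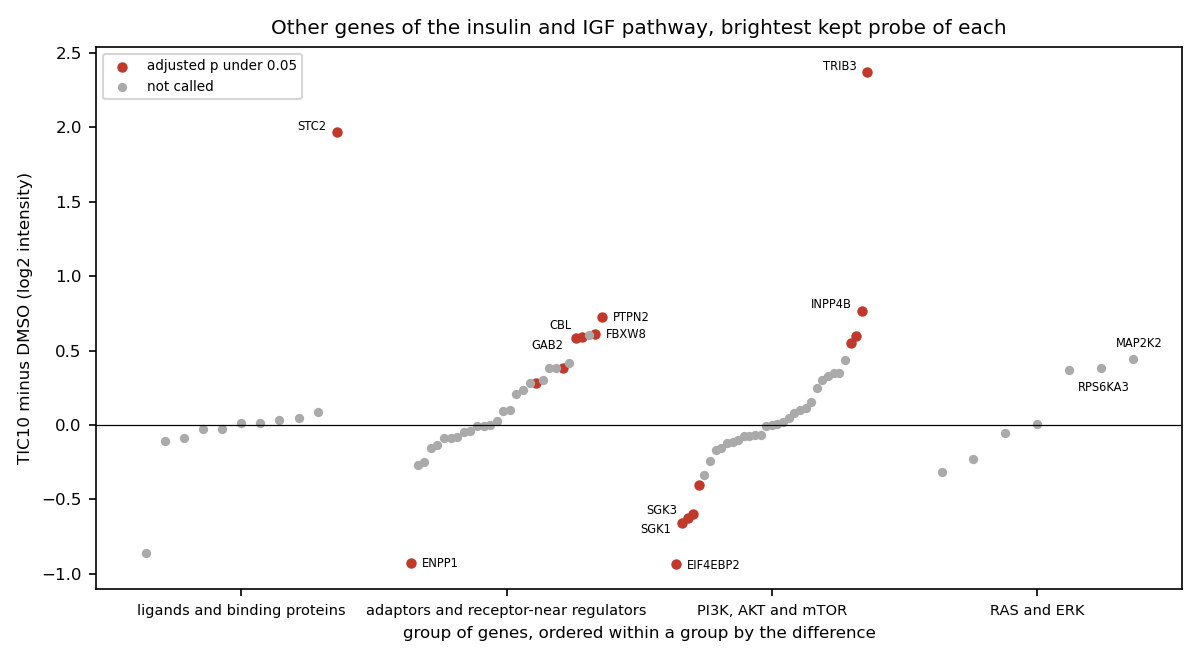
TIC10 minus DMSO (log2 intensity) of the 83 tested genes of the wider pathway, by group and ordered within a group, with called genes in red (adjusted p under 0.05) and others in grey. STC2 (1.97) and TRIB3 (2.37) stand apart from the others, and no gene of the RAS and ERK group is red.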

How the data were processed

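Total RNA of HCT116 cells was labelled and hybridized to Illumina bead arrays, per the labels' protocols. The deposited bead table held intensity values that its file name calls non-normalized, without detection p-values, and no source used here says whether a background was subtracted. Its columns named Control were assigned to DMSO by treatment and number. The deposited series matrix held log values on both sides of 0, taken here as log2. The sources used here do not state their base, scaling or centring. The medians of its columns were -0.06, -0.00081 and 0.07 (DMSO) and 0.03, -0.10 and 0.03 (TIC10).

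Intensities were background-corrected (normexp, offset 50), quantile normalized and log2-transformed in R 4.3.3 with limma 3.58.1. Probes above percentile 40 of their array on at least 3 arrays were kept, 29440 in all, and tested with lmFit and eBayes (two-sided), adjusted over all of them. Of 47319 probes 30112 had 1 symbol, 8 several and 17199 none, and 30073 Entrez numbers matched RefSeq (GRCh38.p14). The steps were tested on simulated data.

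The members, lists, motifs and tests were chosen with earlier results of these data known. Named were all member probes, the called genes of each pathway group that changed most, up to 5 (with none called, the 2 of smallest p), and the 3 probes most like the 2 leading called members. PAPPA, IGFBP2 and EIF4EBP1 were named besides these, after their values were seen. A check of the deleted gene is not reported here.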

Additional observations from a re-analysis of the deposited data

How the results depend on the processing

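Alternatives changed background correction, scaling, filter, unit of the test, variance model, array weights and the arrays used, and the matrix values were tested separately. The single probes followed through the alternatives were the kept member probes and those named by rule. Of them, INSR (0.20), the dim GRB10 probe ILMN_1667771 (-0.0644), RILPL1 (-0.0305) and MGST1 (-0.0128) reversed in the series matrix. With arrays scaled to one median, IGF2R (-0.12), IRS1 (-0.32) and IGFBP6 (-0.13) reversed. Leaving out single arrays gave -0.00539 to 0.27 for IRS1 and -0.000236 to 0.0504 for ILMN_1667771. None of these was called except RILPL1 and MGST1, and the cause was not tested. IGF1R, IGFBP4, IGFBP2, PAPPA and EIF4EBP1 were not followed this way. Of those, IGFBP2 (-0.86) and IGFBP4 (0.04 without the filter) had the opposite sign in the series matrix (0.02 and -0.06), neither called. Scaling to one median left 513 probes higher over all, 1 member probe higher and 2 wider genes higher. The series matrix gave 704 probes higher and 629 lower, 2 member probes higher, and 3 wider genes higher and 0 lower (limma). With 1 probe per gene, where fewer features were tested, 1513 genes were higher over all and 2 members, and with the mean of a gene's probes 1547 and 2. Array weights gave 4111 higher and 4177 lower over all and 19 wider genes higher. Leaving out each array in turn gave 1463 to 3924 probes higher and 1628 to 4069 lower over all, 3 to 4 member probes higher, and 8 to 16 wider genes higher and 5 to 12 lower. The replicate numbers showed no clear pairing of the arrays, with correlations of deviations of -0.08, 0.13 and 0.0032 between same-numbered arrays. DMSO replicates 2 and 3 correlated best with the TIC10 array of their own number, and DMSO replicate 1 did not. With replicate number as a block, 3 member probes were higher (ILMN_2340919 at adjusted p = 0.0612) and 2081 probes higher and 2184 lower over all. The dim probes of INSR, IGF1R, IGFBP4 and ILMN_1667771 limit what can be read of them.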
